A study of Mus musculus with 9 samples.

Results

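The respiratory chain genes described here are the protein-coding genes of complexes I to V of oxidative phosphorylation, in both genomes of the mouse cell, together with the assembly factors whose symbols share their prefixes. They were chosen by name: protein-coding genes whose symbol begins with Nduf, Cox4 to Cox8, Uqcr, Sdha to Sdhd or Atp5, and the protein-coding genes of the mitochondrial chromosome, with a mean of at least 1 TPM (a level corrected for gene length and library size) over the 9 libraries. The names gave 110 genes, of which 2 were listed at 0 TPM in the mean, Cox8c and a second entry for Atp5o, and 108 of the 55536 genes in the deposited table remained. They were 83 nuclear subunit genes (38 of complex I, 4 of complex II, 8 of complex III, 17 of complex IV and 16 of complex V), 12 nuclear assembly factors (Ndufaf1 to Ndufaf8 and Sdhaf1 to Sdhaf4) and 13 genes encoded by mitochondrial DNA (mtDNA; 7 of complex I, 1 of III, 3 of IV and 2 of V). Just above the minimum lay Cox7b2 at 1.57, Sdhaf3 at 4.73 and Cox4i2 at 4.88 TPM. Symbols do not match function throughout: Ndufa4 is now placed in complex IV, Cox7a2l helps join complexes III and IV, and Cyc1, a subunit of complex III, is not in the set because of its name.

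RNA sequencing was done on hippocampus of hAPP-J20 mice (Tg) and of controls that the labels call nTg and, as genotype, WT. hAPP-J20 mice carry mutant human amyloid precursor protein under a promoter active in neurons, and amyloid plaques form as they grow older. There were 3 Tg libraries at 24 weeks, after plaque formation, 3 Tg libraries at 15 weeks, before it, and 3 nTg libraries, of which replicates 1 and 3 were from 24 weeks and replicate 2 from 15 weeks. The study set the stage before plaques against the stage after them. The nTg libraries of both ages formed 1 group here. The labelled batch equals the age, and the effects of batch and of age cannot be told apart. Values per library are given below in the order of replicates 1, 2 and 3. The labels speak of biological replicates without naming animals, so the spread behind each p-value is that between samples, which may be technical in part.

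The respiratory chain passes electrons from NADH (complex I) and succinate (complex II) through complexes III and IV to oxygen, and complex V, the ATP synthase, uses the proton gradient made on the way to form ATP. Complexes I, III, IV and V are built from proteins of both genomes, while complex II is wholly nuclear. The mitochondrial genome is copied and transcribed inside the organelle as long precursor RNAs from its heavy and light strands, so that its genes are controlled apart from the nuclear ones. Neurons draw most of their ATP from this chain, and transcription factors such as NRF1, ETS family proteins (GABP) and YY1 are known to bind promoters of its nuclear genes.

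Promoters are shown because part of them hold motifs of the factors named above. RefSeq (GRCm38.p6) held a promoter for 78 of the 95 nuclear members, 67 of them subunits, and each window ran from 250 bases before to 50 bases after the first listed start. The NRF1 motif (GCGCA, any base, GCGC), searched on both strands with a position counted once, was in 16 of 67 subunit promoters (23.9%), against 4.78% of all 27025 promoters of the same length. The ETS motif CCGGAAG was in 15 (22.4%, all promoters 9.12%) and the YY1 motif AAGATGGCG in 6 (8.96%, all promoters 1.49%). At least 1 of the motifs was in 32 of 67 (47.8%), against 14% of all promoters. The promoters compared were not matched to the members in base content or level. The 250 bases before the start of 4 genes follow, 5′ to 3′, with matches in capitals. Atp5g2 (a c-ring subunit of complex V) and Ndufa11 (an accessory subunit of complex I) were shown for their small p between the ages of Tg below. Both hold an NRF1 match, while Ndufb8, of the same edgeR adjusted p, held no match and is not shown. Cox6a1 (a subunit of complex IV) was shown for holding an ETS and 2 NRF1 matches. Sdha (the succinate-oxidising subunit of complex II) was shown for holding 3 NRF1 matches while its RNA differed little between groups. All 4 were picked with their values known.
Atp5g2 (chr15:102671048-102671297, strand -): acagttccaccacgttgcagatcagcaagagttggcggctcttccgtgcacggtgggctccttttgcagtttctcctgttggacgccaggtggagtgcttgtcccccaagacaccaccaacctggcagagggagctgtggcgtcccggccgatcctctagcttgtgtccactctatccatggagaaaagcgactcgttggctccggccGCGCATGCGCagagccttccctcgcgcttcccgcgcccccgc
Ndufa11 (chr17:56717512-56717761, strand +): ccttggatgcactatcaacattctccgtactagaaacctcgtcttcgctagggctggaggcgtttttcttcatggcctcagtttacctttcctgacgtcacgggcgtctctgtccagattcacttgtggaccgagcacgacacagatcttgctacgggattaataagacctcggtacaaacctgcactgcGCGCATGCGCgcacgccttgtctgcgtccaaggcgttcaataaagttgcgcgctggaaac
Cox6a1 (chr5:115348959-115349208, strand -): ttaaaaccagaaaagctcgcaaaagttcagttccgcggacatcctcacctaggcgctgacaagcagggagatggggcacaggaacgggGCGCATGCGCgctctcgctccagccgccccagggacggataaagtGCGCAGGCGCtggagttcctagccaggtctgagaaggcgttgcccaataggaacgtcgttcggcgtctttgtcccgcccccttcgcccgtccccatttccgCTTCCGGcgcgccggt
Sdha (chr13:74350241-74350490, strand -): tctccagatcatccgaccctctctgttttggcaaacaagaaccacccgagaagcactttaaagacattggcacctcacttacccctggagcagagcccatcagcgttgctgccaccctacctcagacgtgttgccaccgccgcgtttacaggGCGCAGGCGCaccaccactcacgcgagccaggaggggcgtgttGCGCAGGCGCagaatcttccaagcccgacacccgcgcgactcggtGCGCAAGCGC
The first NRF1 match began 42 bases before the start in Atp5g2, 60 in Ndufa11, 162 in Cox6a1 and 98 in Sdha. Between the ages of Tg the median log2 difference was 0.29 for the 16 subunit genes with an NRF1 match and 0.28 for the 51 without. At an unadjusted edgeR p under 0.05 there were 8 of the 16 and 14 of the 51, where 15.2% of all genes were. The difference between these 2 classes was not tested.

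In mtDNA the members are packed so tightly that some share bases, which bears on how their reads could be counted. By their coordinates mt-Nd5 and mt-Nd6, on opposite strands, share chrMT:13552-13565, and mt-Atp6 and mt-Co3 share chrMT:8607. These stretches are not shown. With 12 flanking bases and the shared bases in capitals (GENCODE M21 transcripts, GRCm38), mt-Atp8 and mt-Atp6, both of complex V, overlap by 43 bases at chrMT:7927-7969, and mt-Nd4l and mt-Nd4, both of complex I, by 7 bases at chrMT:10167-10173.
mt-Atp8 and mt-Atp6 (chrMT:7915-7981, strand +): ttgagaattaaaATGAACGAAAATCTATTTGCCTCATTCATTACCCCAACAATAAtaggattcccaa
mt-Nd4l and mt-Nd4 (chrMT:10155-10185, strand +): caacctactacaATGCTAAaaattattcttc

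Total counts ran from 12733452 (Tg 24 weeks replicate 3) to 21529266 per library. Summed hippocampal pyramidal and granule cell markers, 11 of 11 measured, lay between 5603 and 6739 CPM (counts scaled by library size and TMM factors) in every library. The human transgene has no row of its own, and mouse App stood at 1542, 1460 and 804 CPM in 24-week Tg, 1440, 1509 and 1498 CPM in 15-week Tg and 1023, 1501 and 1452 CPM in nTg, so the genotypes could not be checked by it. Tg 24 weeks replicate 3 stood apart. Its log2 CPM fell with gene length by 0.14 per doubling of length relative to the other libraries, where the same slope lay between −0.03 and 0.06, and its summed blood markers (5 of 5 measured) stood at 786 CPM against 145 to 402 CPM elsewhere. Striatal markers, 7 of 7 measured, summed to 303 CPM in it and to 149 to 195 CPM in the other 8 libraries. The nuclear subunit genes are short, at the 12.8th percentile of length in the median, and the main results are followed by their values without this library. Other marker lists, each measured in full, separated some pairs of groups and overlapped in others. Oligodendrocyte markers summed to 3918 to 5012 CPM in 24-week Tg and 3991 to 4712 CPM in 15-week Tg, below 5157 to 6213 CPM in nTg. Choroid plexus markers summed to 1884 to 6666, 1823 to 3874 and 5087 to 6769 CPM in that order, and meningeal markers to 189 to 248, 126 to 184 and 111 to 141 CPM. The part of these cell types in the differences below was not tested.

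The members covered a wide range of levels. In TPM, averaged over 9 libraries, the nuclear subunit genes had a median of 202 and ran from 1.57 (Cox7b2, a form of a complex IV subunit known mainly from testis) to 2210 (Cox8a, the ubiquitous form of the smallest complex IV subunits). Median levels were 194 TPM in complex I, 153 in complex II, 268 in complex III, 354 in complex IV and 188 in complex V. The highest within each complex were Ndufb11 (596 TPM) in I, Sdhb (198) in II, Uqcr11 (988) in III, Cox8a in IV and Atp5b (570), the catalytic beta subunit, in V, and the lowest were Ndufa4l2 (5.72), Sdhc (89.5), Uqcrc2 (122), Cox7b2 and Atp5s (16.9), a coupling factor. Assembly factors, which help build the complexes without staying in them, were lower, at a median of 19.2 TPM and a range of 4.73 (Sdhaf3) to 64.3 (Ndufaf8). The mtDNA-encoded genes had a median of 4795 TPM.

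**Figure D1:**
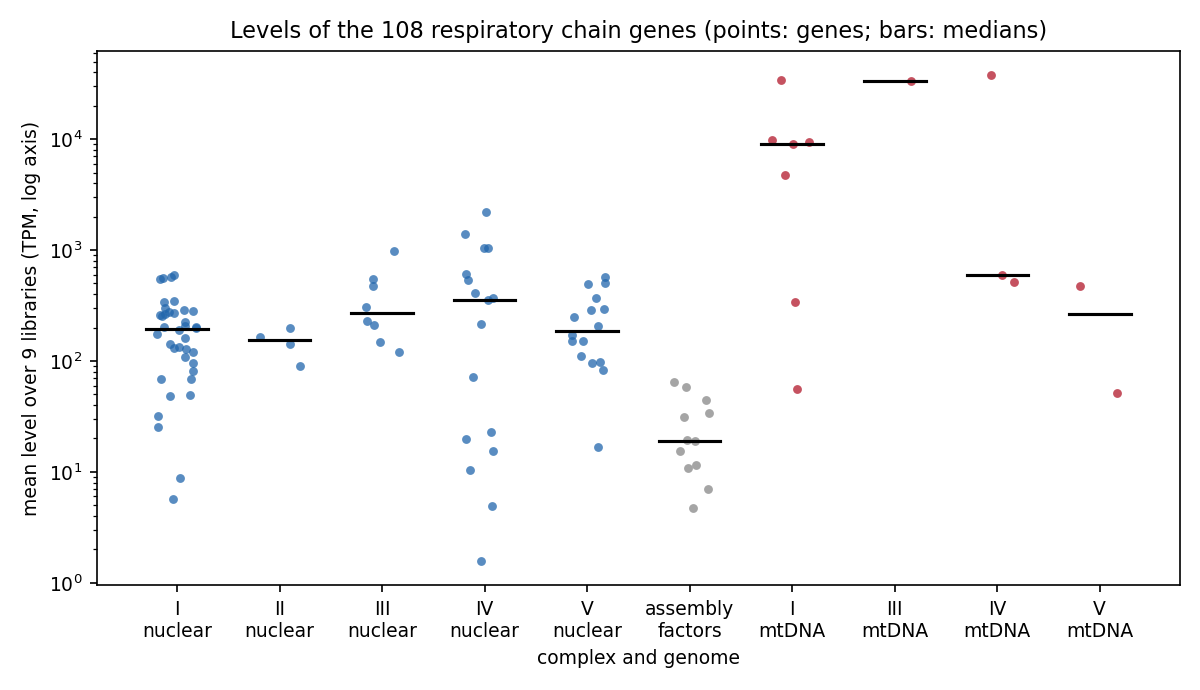
Mean level of each of the 108 genes over the 9 libraries (TPM, log axis) by complex and by genome; each point is a gene and each bar the median of its column. The mtDNA-encoded genes reach 37870.2 TPM (mt-Co1), while nuclear complex IV spans 1.57 to 2210 TPM.

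No member passed the threshold in any of the 3 comparisons (edgeR quasi-likelihood test, Benjamini-Hochberg adjusted p of 0.05 over 17457 genes), where 0.132% of all genes tested were called in Tg 24 weeks against nTg, 0% in Tg 15 weeks against nTg and 0.0344% in Tg 24 weeks against Tg 15 weeks. The lowest edgeR adjusted p of a member was 0.319 for Ndufaf2 in Tg 24 weeks against nTg and 0.215 for Atp5g2, Ndufa11, Cox4i1 and Ndufb8 between the ages of Tg. At an unadjusted p under 0.05, 7 of 108 members stood out in Tg 24 weeks against nTg, all at higher levels in Tg, where 13% of all genes did. In Tg 15 weeks against nTg there were 2 of 108, where 3.29% of all genes did. Between the ages of Tg there were 28 of 108, all at higher levels at 24 weeks, where 15.2% of all genes did. Of these 28, 25 were among the 83 nuclear subunit genes, 3 among the 12 assembly factors and 0 among the 13 mtDNA-encoded genes. Groups did not overlap, with Tg at 24 weeks the higher, in 11 members against nTg (9.72% of all genes) and in 17 members against Tg at 15 weeks (10.6% of all genes). Tg at 15 weeks lay below all nTg libraries in 7 members (5.69% of all genes). DESeq2 called 2 members between the ages of Tg, Cox4i1 and Atp5g2, where it called 2.21% of the genes to which it gave an adjusted p, and 0 members in the other comparisons. Limma with voom weights called 0 in each. Without the filter on low counts, edgeR called 4, 1 and 10 members in the 3 comparisons in the order above, where it called 1.6%, 0.186% and 2.01% of 34937 genes.

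The nuclear subunit genes leaned one way in each comparison, except at 24 weeks against nTg with an offset for gene length, where the sign turned. Their median log2 difference was 0.18 in Tg 24 weeks against nTg (68 of 83 positive, all genes 0.03), −0.09 in Tg 15 weeks against nTg (64 of 83 negative, all genes 0.00) and 0.28 between the ages of Tg (73 of 83 positive, all genes 0.02). The first 2 comparisons share their nTg libraries, and each Tg group enters a pair of comparisons. By complex, I to V in order, the medians against nTg were 0.22, 0.19, 0.14, 0.18 and 0.12 at 24 weeks and −0.06, −0.03, −0.12, −0.11 and −0.11 at 15 weeks. Between the ages of Tg they were 0.28, 0.22, 0.24, 0.31 and 0.19. Differences between complexes were not tested. The 13 mtDNA-encoded genes had medians of 0.04, −0.03 and 0.03 in the same order of comparisons, and with an offset for gene length −0.15 at 24 weeks against nTg and −0.18 between the ages. The assembly factors had 0.09, 0.00 and 0.10. In bulk tissue fewer cells of a type and less RNA per cell cannot be told apart.

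**Figure D2:**
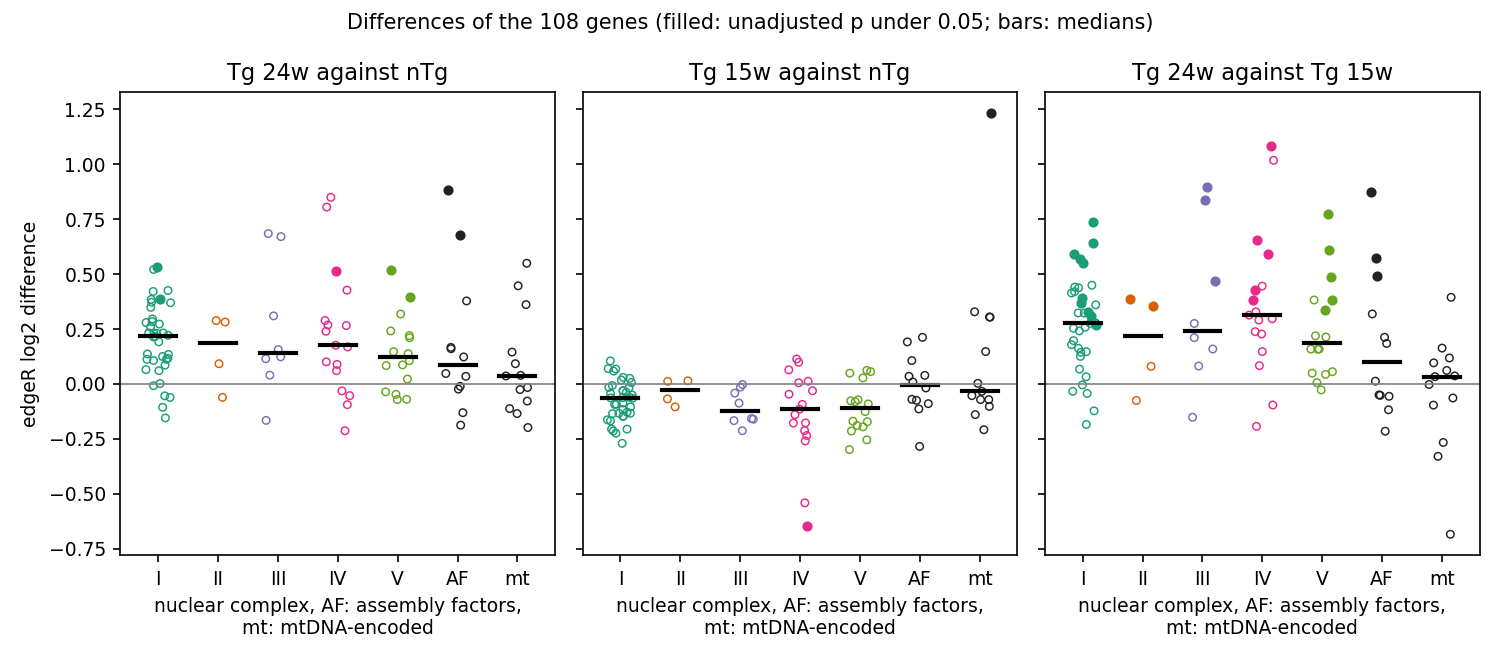
Log2 difference (edgeR) of each of the 108 genes in the 3 comparisons, by nuclear complex, for assembly factors (AF) and for mtDNA-encoded genes (mt); filled points have an unadjusted p under 0.05 and bars are medians. The nuclear medians sit above 0 in the left and right panels (0.18 and 0.28 over all 83 genes; −0.01 and 0.11 with an offset for gene length) and below it in the middle panel, and the mt median is 0.04, −0.03 and 0.03 (−0.15 and −0.18 with that offset in the left and right panels).

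The size of this lean rested largely on single libraries. The deviation of each gene's log2 CPM from the median of the other 8 libraries had a median over the 83 nuclear subunit genes of 0.47 in Tg 24 weeks replicate 3 (73 above, 10 below) and −0.29 in Tg 15 weeks replicate 2 (7 above, 76 below). The other replicates of Tg at 24 weeks stood at −0.02 and 0.15, those of Tg at 15 weeks at −0.02 and −0.05, and nTg at −0.06, −0.04 and 0.18. Of the 83 genes, 57 had their highest CPM in Tg 24 weeks replicate 3 and 43 their lowest in Tg 15 weeks replicate 2. Without Tg 24 weeks replicate 3 the median was 0.05 against nTg (54 of 83 positive, 0 at an unadjusted p under 0.05, where 10.3% of all genes were) and 0.13 between the ages (63 of 83 positive, 12 at an unadjusted p under 0.05, or 14.5%, where 12.1% of all genes were). By complex, I to V, the medians without it were 0.06, 0.17, 0.03, −0.05 and 0.01 against nTg and 0.15, 0.19, 0.10, 0.13 and 0.13 between the ages. Without Tg 15 weeks replicate 2 it was −0.01 at 15 weeks against nTg and 0.19 between the ages. With an offset for gene length in each library the median was −0.01 at 24 weeks against nTg, −0.09 at 15 weeks against nTg and 0.11 between the ages. Within the labelled batches it was 0.12 for the 24-week libraries alone and −0.03 for the 15-week libraries, where nTg has 1 library assumed to vary like the others. On the log2 TPM scale (pseudocount 0.1, limma) it was 0.06 at 24 weeks against nTg, where the median of all genes moved to −0.09.

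In Tg 24 weeks replicate 3 the shorter members deviated more. Its median deviation was 0.53 for the 28 shortest nuclear subunit genes, 0.42 for the next 28 and 0.32 for the 27 longest. In Tg 15 weeks replicate 2 the same classes of length had −0.31, −0.33 and −0.23. Cytosolic ribosomal protein genes, another list of short genes, deviated by 0.37 in the first of these libraries and −0.25 in the second, and mitochondrial ribosomal protein genes by 0.24 and −0.22. The part of gene length, of blood and of striatal RNA in these values was not tested.

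**Figure D3:**
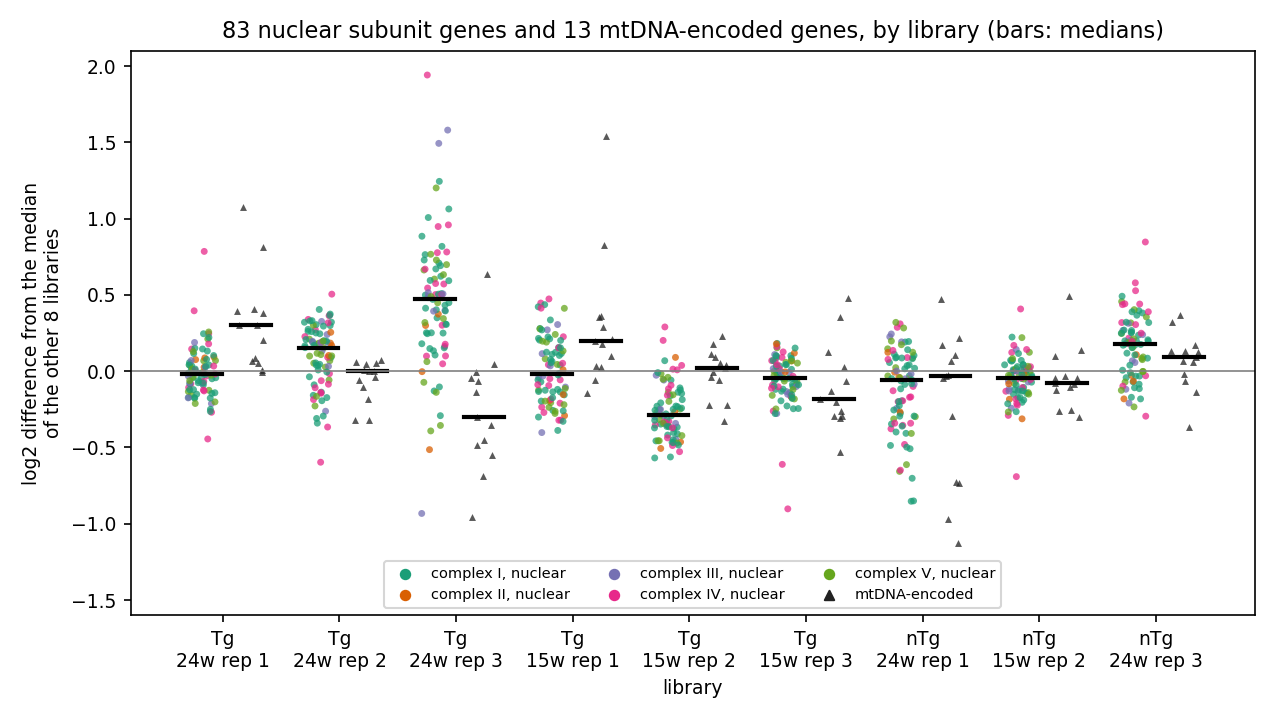
Log2 difference of each nuclear subunit gene (circles, coloured by complex) and each mtDNA-encoded gene (triangles) from the median of the other 8 libraries, by library; bars are medians. Tg 24 weeks replicate 3 is high for the nuclear genes (median 0.47 over all 83). Its medians for complexes I to V are 0.44, 0.15, 0.50, 0.54 and 0.47. Its median over all 13 mtDNA genes is −0.30. Over the 5 mtDNA genes above the low class of levels that share little or no sequence with other annotated transcripts it is −0.04. These are mt-Nd1, mt-Nd2, mt-Nd5, mt-Nd6 and mt-Cytb. Tg 15 weeks replicate 2 is low for the nuclear genes (median −0.29).

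Complex I takes electrons from NADH through a flavin and a chain of iron-sulfur clusters, carried by nuclear-encoded core subunits, and pumps protons through mtDNA-encoded ones. Ndufs7, which holds the last iron-sulfur cluster before ubiquinone, stood at 119, 115 and 132 CPM in 24-week Tg, 85.8, 91.1 and 102 CPM in 15-week Tg and 94.2, 98.6 and 114 CPM in nTg. Each 24-week Tg library lay above each of the other 6, and its log2 difference between the ages was 0.39 ± 0.13 (SE, edgeR adjusted p = 0.233), 0.32 without Tg 24 weeks replicate 3. Ndufs3 stood at 126, 141 and 130 CPM in 24-week Tg, 111, 107 and 113 CPM in 15-week Tg and 127, 121 and 114 CPM in nTg. There Tg at 15 weeks was the lowest group, with no overlap with either other group. Ndufs1, the largest iron-sulfur subunit, went the other way. It stood at 117, 110 and 98.9 CPM in 24-week Tg, 125, 125 and 122 CPM in 15-week Tg and 136, 120 and 107 CPM in nTg. Each 24-week Tg library lay below each 15-week Tg library, while nTg overlapped both groups. Without Tg 24 weeks replicate 3 its log2 difference was −0.13 between the ages and −0.10 against nTg. Ndufv2 differed between the ages by a log2 of 0.00 ± 0.14 with all libraries and by −0.12 without Tg 24 weeks replicate 3.

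Among the accessory subunits of complex I the smallest p between the ages belonged to Ndufa11, a membrane subunit that helps hold the complex together. It stood at 94.9, 91.6 and 151 CPM in 24-week Tg, 74.0, 68.9 and 73.0 CPM in 15-week Tg and 77.2, 85.9 and 97.3 CPM in nTg. All 15-week Tg values lay below every other library, and the log2 difference between the ages was 0.64 ± 0.18 (edgeR adjusted p = 0.215), 0.36 without Tg 24 weeks replicate 3. Ndufb8, a subunit that is lost when the complex fails to assemble, stood at 157, 204 and 233 CPM in 24-week Tg, 128, 114 and 152 CPM in 15-week Tg and 170, 131 and 158 CPM in nTg. Its Tg groups did not overlap, though 24-week Tg and nTg did, and the difference between the ages was 0.59 ± 0.17 (edgeR adjusted p = 0.215), 0.45 without that library. Ndufb7 read 108, 122 and 150 CPM, 93.8, 69.3 and 96.1 CPM and 80.2, 98.4 and 112 CPM in the same order of groups, a difference between the ages of 0.55 ± 0.18, or 0.40 without that library. Ndufs6, which carries a zinc site next to the NADH-oxidising part, showed the weight of 1 library plainly, at 75.6, 87.3 and 159 CPM against 76.3, 60.5 and 79.8 CPM in 15-week Tg and 63.5, 71.2 and 87.7 CPM in nTg. Its difference between the ages was 0.57 ± 0.24 and 0.17 without Tg 24 weeks replicate 3. Ndufb11, a membrane-arm subunit, was similar at 230, 249 and 449 CPM, then 271, 195 and 217 CPM in 15-week Tg and 181, 215 and 294 CPM in nTg.

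Complex II has 4 subunits, Sdha with its flavin, Sdhb with iron-sulfur clusters and the membrane anchors Sdhc and Sdhd. Sdha stood at 334, 338 and 229 CPM in 24-week Tg, 294, 335 and 320 CPM in 15-week Tg and 342, 309 and 288 CPM in nTg, and here Tg 24 weeks replicate 3 was the lowest of all 9. Sdhc stood at 146, 156 and 168 CPM, 114, 101 and 143 CPM, and 136, 113 and 137 CPM in the same order. All 24-week Tg values of Sdhc exceeded all others, with a log2 difference of 0.28 ± 0.15 against nTg and 0.39 ± 0.15 between the ages (edgeR adjusted p = 0.439 and 0.272). Sdhc kept a difference of 0.32 between the ages without Tg 24 weeks replicate 3. Sdhb differed between the ages by 0.36 ± 0.16 (0.28 without it) and Sdhd by 0.08 ± 0.13 (0.10 without it).

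Complex III moves electrons from ubiquinol to cytochrome c. Its small subunits Uqcr11 and Uqcrq had among the largest differences of all members, and both rested on 1 library. Uqcr11 stood at 232, 303 and 724 CPM in 24-week Tg, 248, 192 and 236 CPM in 15-week Tg and 276, 221 and 286 CPM in nTg. Uqcrq stood at 167, 188 and 463 CPM, 162, 131 and 165 CPM, and 164, 152 and 198 CPM in that order. Replicates 1 and 2 of Tg at 24 weeks lay within or close to the range of the other groups in both genes. The difference between the ages was 0.90 ± 0.33 for Uqcr11 and 0.84 ± 0.31 for Uqcrq, and 0.24 and 0.21 without replicate 3. The core protein genes parted ways: Uqcrc1 stood at 311, 311 and 385 CPM in 24-week Tg, above 214, 234 and 280 CPM in 15-week Tg and 267, 259 and 286 CPM in nTg. Its difference was 0.47 ± 0.15 between the ages (edgeR adjusted p = 0.222) and 0.35 without Tg 24 weeks replicate 3. Uqcr10, another small subunit, differed by 0.28 between the ages, or 0.10 without that library. Uqcrc2 instead was at 153, 166 and 77.1 CPM in 24-week Tg, with that replicate the lowest of all 9 libraries, which otherwise lay between 136 and 172 CPM.

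Complex IV, cytochrome c oxidase, has its catalytic core in mtDNA, and its nuclear subunits regulate and stabilise it. Cox4i1, the common form of the largest nuclear subunit, stood at 999, 1252 and 1703 CPM in 24-week Tg, 883, 745 and 882 CPM in 15-week Tg and 859, 857 and 1049 CPM in nTg. The Tg groups did not overlap, and 1 nTg library reached into the 24-week range. Cox4i1 differed by 0.52 ± 0.19 against nTg and 0.66 ± 0.19 between the ages (edgeR adjusted p = 0.329 and 0.215), and by 0.28 and 0.42 without Tg 24 weeks replicate 3. DESeq2 called it between the ages (0.64, adjusted p = 0.0451), and over the alternatives the value stayed positive. Cox6a1 stood at 328, 395 and 450 CPM, 292, 273 and 307 CPM, and 387, 296 and 360 CPM, so that the Tg ages did not overlap while nTg overlapped 24-week Tg (0.43 ± 0.15 between the ages, 0.31 without Tg 24 weeks replicate 3). Cox8a, the most abundant nuclear member per length, reached 1040 CPM in Tg 24 weeks replicate 3 and 447 to 694 CPM in the other 8 libraries.

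Several complex IV subunits and Ndufa4 come in a common form and a form known from muscle, lung, testis or low oxygen, and in each pair below the common form made up most of the TPM in every library. As a share of the pair's TPM, Cox7a2l, which helps join complexes III and IV and is not such a form, was 23.8% to 32.8% of the pair with Cox7a2. Cox4i2 (known to respond to oxygen) was 0.216% to 0.5% of the pair with Cox4i1, and Cox6a2, a muscle form also known from some neurons, 1.46% to 2.72% of its pair. Cox6b2 was 0.711% to 1.78%, Cox8b 0.546% to 1.76% and Ndufa4l2, known as a hypoxia-induced gene, 0.699% to 1.58%. Cox7a1, the heart and muscle form, was 1.77% to 2.72% of the pair with Cox7a2 in 8 libraries and 6.29% in Tg 24 weeks replicate 3. In CPM Cox7a1 stood at 2.63, 3.35 and 12.1 in Tg at 24 weeks, 2.69, 2.70 and 2.94 at 15 weeks and 2.53, 2.88 and 4.41 in nTg. Its log2 difference between the ages was 1.08 ± 0.48 with all libraries and 0.10 without that one, and against nTg it changed sign from 0.85 to −0.14. Cox6b2, known from testis, was the nuclear member of smallest p at 15 weeks, at 4.47, 3.81 and 3.57 CPM against 6.47, 4.97 and 7.11 CPM in nTg. The 3 Tg values lay below all nTg values, and the log2 difference was −0.65 ± 0.21 (edgeR adjusted p = 0.9999). Within the 15-week libraries it was −0.33, with nTg the single library at 4.97 CPM.

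Complex V joins a catalytic head and central stalk to a membrane ring of c subunits. The head genes Atp5a1 and Atp5b stayed close, with log2 differences of −0.07 ± 0.17 and −0.04 ± 0.15 against nTg at 24 weeks, or 0.07 and 0.005 without Tg 24 weeks replicate 3. Atp5b stood at 1147, 1216 and 1070.0 CPM, 929, 1011 and 1135 CPM, and 1331, 1117 and 1072 CPM in the order of groups used above. Atp5d, the delta subunit of the central stalk, stood at 273, 252 and 542 CPM in 24-week Tg, 207, 201 and 216 CPM in 15-week Tg and 236, 235 and 273 CPM in nTg. Tg at 15 weeks lay below all other libraries, and the difference between the ages was 0.77 ± 0.24 (edgeR adjusted p = 0.221), 0.33 without Tg 24 weeks replicate 3. Atp5o, the stalk subunit that confers oligomycin sensitivity, also lay below all nTg libraries in 15-week Tg, at 80.5, 62.7 and 80.1 CPM against 94.7, 84.4 and 95.6 CPM (−0.30 on the log2 scale).

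The c subunit is made as 1 mature protein from 3 genes that differ in their import sequence. Atp5g2 had the smallest p of all members between the ages: 129, 133 and 178 CPM in 24-week Tg, 103, 85.8 and 99.2 CPM in 15-week Tg and 123, 97.8 and 112 CPM in nTg. Every 24-week Tg library exceeded every other one. The differences were 0.40 ± 0.16 against nTg and 0.61 ± 0.16 between the ages (edgeR adjusted p = 0.338 and 0.215), 0.23 and 0.44 without Tg 24 weeks replicate 3, and DESeq2 called the latter (0.60, adjusted p = 0.0307). Atp5g1 differed by 0.49 ± 0.20 and Atp5g3 by 0.34 ± 0.15 between the ages, or by 0.20 and 0.19 without that library. In TPM the 3 genes made up 20.1% ± 2.03, 32.3% ± 1.5 and 47.6% ± 2.56 (SD, n = 3) of the c-subunit total in 24-week Tg, with Atp5g2 at 28.8% ± 1.86 in 15-week Tg and 29.2% ± 1.82 in nTg. In this share 24-week Tg overlapped nTg, with a lowest value of 31.01% against a highest of 31.24% in nTg. The highest in 15-week Tg was 30.95%. Atp5g2 shared 38.4% of its 50-base words with transcripts of other genes, so part of its reads could belong elsewhere.

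**Figure D4:**
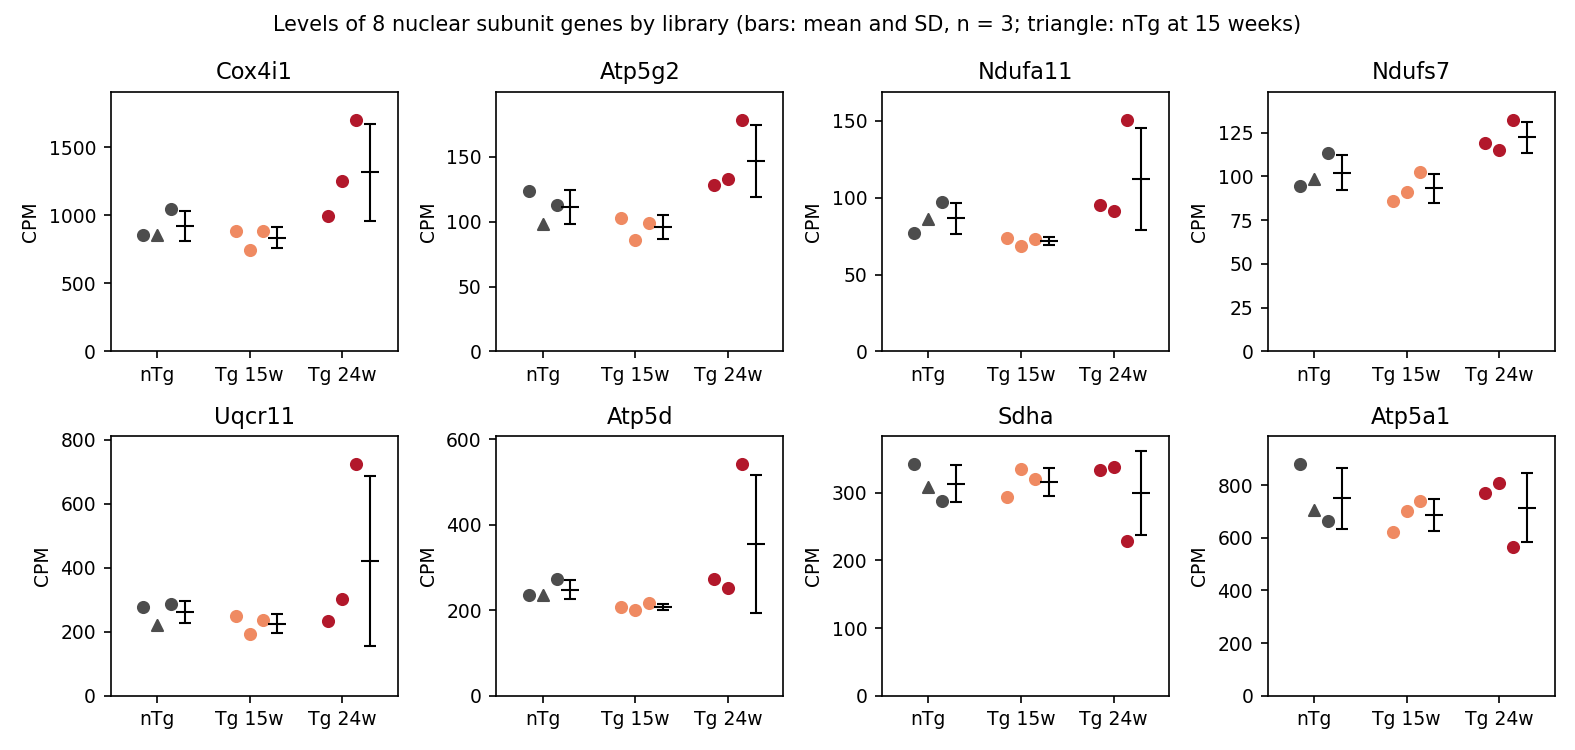
TMM-normalised CPM of 8 nuclear subunit genes in each library, with the group mean and SD (n = 3); the triangle is the nTg library of 15 weeks. In Ndufs7 and Atp5g2 all 3 Tg libraries of 24 weeks lie above the other 6, in Uqcr11 and Atp5d the height of the group comes from the single library at 724 and 542 CPM, and in Sdha and Atp5a1 that library is the lowest.

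At 24 weeks against nTg the largest log2 difference of all members (Ndufaf8) and the smallest p (Ndufaf2) belonged to assembly factors. Ndufaf8, which helps a complex I factor that modifies Ndufs7, stood at 22.4, 25.3 and 63.2 CPM in 24-week Tg, 23.0, 17.4 and 19.8 CPM in 15-week Tg and 20.6, 17.7 and 21.4 CPM in nTg. Ndufaf2, a late complex I assembly factor, stood at 23.1, 21.0 and 41.7 CPM, 22.5, 17.7 and 17.3 CPM, and 16.0, 20.5 and 16.8 CPM. In both genes each 24-week Tg value exceeded all nTg values, by a small margin in replicates 1 and 2. The log2 differences were 0.88 ± 0.32 for Ndufaf8 and 0.68 ± 0.24 for Ndufaf2 (edgeR adjusted p = 0.321 and 0.319), and 0.25 and 0.30 without Tg 24 weeks replicate 3. Ndufaf2 shared 64.1% of its 50-base words with another annotated gene, B230220B15Rik, and Sdhaf1 69.0% with E130208F15Rik, so both are uncertain. Ndufaf4, Ndufaf6 and Sdhaf3 differed by 0.16 ± 0.16, 0.03 ± 0.19 and −0.02 ± 0.20 against nTg at 24 weeks.

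The mtDNA-encoded genes fell into a high and a low class of levels. Per length, mt-Co1 (complex IV) stood at 37870.2 TPM, mt-Nd1 (complex I) at 34428 and mt-Cytb (complex III) at 33201, and their ranges over libraries overlapped. Next came mt-Nd4 at 9842, mt-Nd2 at 9335, mt-Nd6 at 9056 and mt-Nd5 at 4795 TPM, the first 3 again overlapping. Far below were mt-Co3 at 592, mt-Co2 at 511, mt-Atp6 at 477, mt-Nd3 at 337, mt-Nd4l at 56.4 and mt-Atp8 at 51.7 TPM. Several of these genes are also present as nuclear copies, and the 5 with nearly full copies were among the 6 lowest. All 50-base words of mt-Co2 occur in other annotated transcripts, as do 99.9% for mt-Co3, 99.5% for mt-Atp6, 98.8% for mt-Nd4l and 98.0% for mt-Nd3, mainly in pseudogenes that lie side by side on chromosome 1 between 24611535 and 24616197 (GRCm38). The share was 62.2% for mt-Nd4, 51.1% for mt-Co1, 8.19% for mt-Nd2, 7.61% for mt-Nd5 and 0% for mt-Nd1, mt-Nd6, mt-Cytb and mt-Atp8. Only annotated transcripts were searched, so a share of 0% does not exclude copies elsewhere in the nuclear genome, for mt-Atp8 as for the others. Levels of the 5 with nearly full copies, and of mt-Atp8, which overlaps mt-Atp6, are therefore not read as RNA levels, and how the counting treated reads with several matches is not given in the sources used here. The copy of mt-Atp6, Gm10925, alone held 2802 to 20253 counts per library, against 1060 to 4043 for mt-Atp6.

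Differences of the mtDNA genes were mostly smaller than or near their errors, apart from mt-Atp8 and mt-Nd6. mt-Cytb stood at 18400.0, 16990.0 and 17910.0 CPM in 24-week Tg, 20070.0, 17470.0 and 14410.0 CPM in 15-week Tg and 17170.0, 17180.0 and 19540.0 CPM in nTg, and all groups overlapped. Its log2 differences were −0.02 ± 0.17, −0.05 ± 0.17 and 0.04 ± 0.17 in the 3 comparisons. mt-Nd1 differed by 0.15 ± 0.19, 0.15 ± 0.19 and 0.00 ± 0.19, mt-Nd2 by −0.08 ± 0.17, −0.14 ± 0.17 and 0.06 ± 0.17, and mt-Nd5 by −0.11 ± 0.18, −0.21 ± 0.18 and 0.10 ± 0.18. mt-Co1, with partial copies, differed by −0.13 ± 0.18, −0.07 ± 0.18 and −0.06 ± 0.18. mt-Nd4 differed by 0.04 ± 0.17, 0.00 ± 0.17 and 0.03 ± 0.17. At 24 weeks against nTg and without Tg 24 weeks replicate 3, mt-Cytb differed by −0.03, mt-Nd1 by 0.22, mt-Nd2 by 0.05, mt-Nd5 by −0.09, mt-Co1 by 0.00 and mt-Nd4 by 0.08. The largest value was that of mt-Atp8 at 15 weeks against nTg, 1.23 ± 0.42 (unadjusted p = 0.0128, edgeR adjusted p = 0.9999), from 208, 82 and 121 counts in Tg and 37, 65 and 60 counts in nTg. Its 15-week values did not overlap nTg, and within the 15-week libraries the difference was 1.16. mt-Co3, mt-Co2, mt-Atp6, mt-Nd3 and mt-Nd4l differed by 0.45 ± 0.38, −0.03 ± 0.23, 0.04 ± 0.32, 0.09 ± 0.16 and −0.20 ± 0.24 at 24 weeks against nTg.

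mt-Nd6 is the single protein-coding gene transcribed from the light strand. It stood at 8993, 9832 and 11703 TPM in 24-week Tg, at 8704, 9013 and 7131 TPM in 15-week Tg and at 9614, 7787 and 8726 TPM in nTg. In TPM the groups overlapped, whereas in CPM the lowest value of 24-week Tg (2177) lay just above the highest of nTg (2162). The log2 difference at 24 weeks against nTg was 0.36 ± 0.20 (edgeR adjusted p = 0.464), 0.13 without Tg 24 weeks replicate 3 and 0.08 with an offset for gene length. Relative to mt-Co1, transcribed from the heavy strand, mt-Nd6 stood at 16.5% of its CPM in Tg 24 weeks replicate 3 and at 6.38% to 8.15% in the other 8 libraries. Of the light-strand transfer RNA genes, mt-Tn (312 CPM against 13.5 to 151 elsewhere), mt-Tc (289 against 25.6 to 133) and mt-Tp (192 against 93.1 to 174) were highest in that library. The light-strand genes mt-Te, mt-Ty, mt-Ta, mt-Tq and mt-Ts1 were not highest there. The heavy-strand genes mt-Th (4.07 CPM), mt-Ts2 (3.09), mt-Tl2 (3.17), mt-Tr (2.44), mt-Ti (1.46) and mt-Tv (1.30) were highest in it. The other heavy-strand transfer RNA genes were not. Whether the strand was used in counting is not given in the sources used here, so reads of both strands cannot be told apart.

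**Figure D5:**
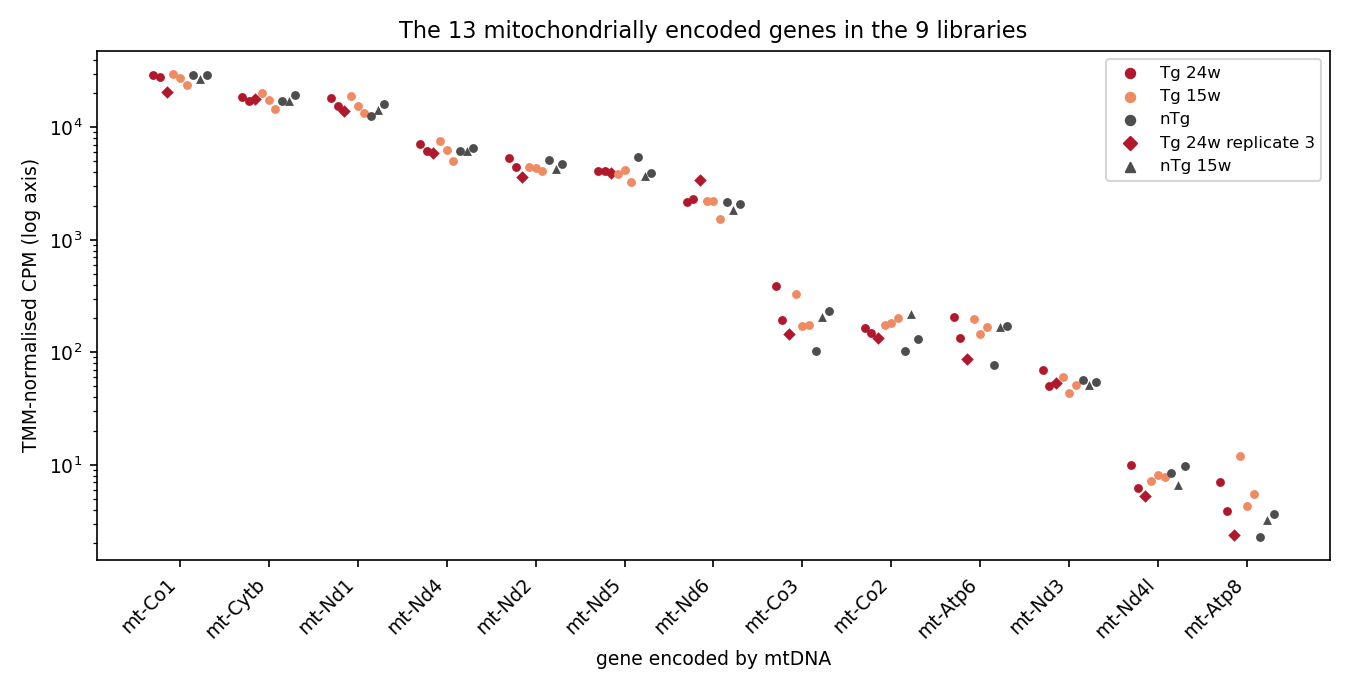
TMM-normalised CPM (log axis) of the 13 mtDNA-encoded genes in the 9 libraries, ordered by mean CPM; points are libraries coloured by group, the diamond is Tg 24 weeks replicate 3 and the triangle the nTg library of 15 weeks. The groups overlap for most genes, and the diamond is the lowest point for mt-Co1 and the highest for mt-Nd6.

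Set against each other, the genomes did not move together in every library. The 13 mtDNA genes took 8.33%, 7.73% and 6.71% of all counts in Tg at 24 weeks, 8.77%, 7.78% and 6.79% in Tg at 15 weeks and 7.84%, 7.49% and 8.38% in nTg, or 7.59% ± 0.82, 7.78% ± 0.99 and 7.91% ± 0.45 (SD, n = 3). The 83 nuclear subunit genes took 1.56%, 1.70% and 2.14%, 1.61%, 1.36% and 1.60%, and 1.53%, 1.55% and 1.77% in the same order. All groups overlapped in both shares. Tg 24 weeks replicate 3 had the lowest mtDNA share and the highest nuclear share of all 9 libraries. The median log2 CPM of the nuclear subunit genes minus that of the mtDNA genes was −3.99 ± 0.15 in Tg at 24 weeks, −3.87 ± 0.43 in Tg at 15 weeks and −3.80 ± 0.16 in nTg. With the 5 mtDNA genes of few shared reads alone the order of the groups was reversed, at −4.80 ± 0.44, −4.99 ± 0.19 and −5.04 ± 0.24, as it was in log2 TPM over all 13 (−4.45 ± 0.28, −4.60 ± 0.30 and −4.79 ± 0.39). No order of the groups is therefore read from this measure.

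Other genes of the pathway were read from lists that were also chosen with results of these data known, and edgeR called 0 genes on them in any comparison. At an unadjusted p under 0.05 the largest count was 21 of 77 mitochondrial ribosomal protein genes between the ages of Tg, all at higher levels at 24 weeks, where 15.2% of all genes were past it, and 10 of 77 without Tg 24 weeks replicate 3, where 12.1% were. Cyc1, cytochrome c1 of complex III, stood at 194, 178 and 264 CPM in 24-week Tg, 161, 148 and 172 CPM in 15-week Tg and 160, 156 and 184 CPM in nTg, with differences of 0.34 ± 0.16 against nTg and 0.40 ± 0.16 between the ages, or 0.15 and 0.20 without that library. Cycs, cytochrome c itself, differed by 0.04 ± 0.16 and 0.06 ± 0.16, or by −0.13 and −0.11 without that library. Among 35 assembly factors (of 37 listed) the medians were 0.12 at 24 weeks against nTg, 0.03 at 15 weeks against nTg and 0.05 between the ages. Without Tg 24 weeks replicate 3 the first and last of these were 0.05 and 0.00. The 22 citric acid cycle and pyruvate genes had medians of −0.01, −0.03 and −0.01, and the 18 electron and inner membrane carriers 0.11, −0.02 and 0.10. The 77 mitochondrial ribosomal protein genes had 0.17, 0.00 and 0.18, and the 76 cytosolic ribosomal protein genes 0.22, −0.05 and 0.26. Without that library the medians at 24 weeks against nTg and between the ages were 0.14 and 0.16 for the mitochondrial and 0.13 and 0.18 for the cytosolic ribosomal protein genes. The 29 genes of mtDNA upkeep, transcription and RNA handling had 0.02, 0.05 and −0.10. Nuclear regulators, 14 of 14 tested, had medians of −0.21 (10 of 14 negative), −0.04 and −0.20 (9 of 14 negative). These are long genes, with a median length percentile of 73.2, and their median deviation was −0.36 in Tg 24 weeks replicate 3. At 24 weeks against nTg and between the ages their medians were −0.13 and −0.10 without that library and −0.15 and −0.11 with an offset for gene length. Among them Ppargc1a, the coactivator PGC-1 alpha, differed by 0.02 ± 0.16 at 24 weeks against nTg and Nrf1 by 0.02 ± 0.15. Without that library these were −0.13 and −0.01. Tfam, which packages and activates mtDNA, stood at 31.2, 30.5 and 24.2 CPM in 24-week Tg, 35.4, 32.0 and 30.1 CPM in 15-week Tg and 38.0, 32.0 and 29.5 CPM in nTg.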

How the data were processed

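Hippocampal RNA of 9 mouse libraries was sequenced. Per the submitters' processing notes, the build was GRCm38 and the tools included HISAT2 2.1.0 and featureCounts 2.0.0, beside Trimmomatic 0.38, CASAVA and DESeq2 1.26.0, with no settings. The deposited raw counts per gene were tested as the authors gave them. The deposited TPM values, the authors' own scaling of the libraries by gene length and depth, were used for levels between genes. Not given in the sources used here were the annotation release, the strand setting and the treatment of reads with several matches. Total counts were 12733452 to 21529266 per library.

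The design was fitted with edgeR 4.0.16 (R 4.3.3): genes kept by filterByExpr, TMM factors, a quasi-likelihood fit of 3 groups (24-week Tg, 15-week Tg, nTg) and Benjamini-Hochberg adjustment over 17457 genes at 0.05. A standard error is the log2 difference divided by the square root of its F statistic. Alternatives were limma 3.58.1, DESeq2 1.42.0, other scalings and filters, leaving out libraries, within-batch values and the replicate number as a block. On simulated counts of 17163 genes for 24-week Tg against nTg, 63% of genes changed by a log2 of 1 and 93% of those changed by 2 were recovered, with 12 false calls. No smaller change was planted and no library was made to stand apart, so the recovery of smaller differences was not tested. Replicate numbers did not pair the libraries. The members and the lists were chosen with earlier results of these data known. Genes named were the 2 of smallest p per complex and comparison, the highest and lowest in mean TPM, paralogue pairs, all 13 mtDNA genes, and Ppargc1a, Tfam, Nrf1, Cyc1 and Cycs. Ndufs1, Ndufs3, Ndufs7, Ndufv2, Sdha, Sdhd, Atp5a1, App and the mitochondrial transfer RNA genes fall outside this rule and were chosen after their values were seen. Shared reads were gauged by exact 50-base words in GENCODE M21 transcripts, and promoters came from RefSeq (GRCm38.p6).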

Additional observations from a re-analysis of the deposited data

How the results depend on the processing

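The number of genes called depended strongly on the tool and the filter. Genes called at 24 weeks against nTg numbered 23 in the fit reported, and 0 with the 24-week libraries alone, 4 with them taken from a fit of 4 groups (an alternative chosen after seeing the data), 218 with DESeq2, 238 with voom weights, 559 with no filter, 12 with limma on log2(TPM + 1) and 12 with 0.1 as pseudocount, and 107 without both Tg 24 weeks replicate 3 and nTg 24 weeks replicate 1. At 15 weeks against nTg they numbered 0, then 2 with DESeq2, 5 with voom weights and 65 with no filter. Between the ages of Tg they numbered 6, then 289 with DESeq2, 102 with voom weights, 701 with no filter, 2 with limma on either TPM scale and 71 without both libraries. Leaving out 1 library at a time gave 4 to 36, 0 to 0 and 1 to 14 genes called, with 36 and 14 reached without Tg 24 weeks replicate 3, 4 without the nTg library of 15 weeks and 1 without Tg 15 weeks replicate 1, and 0 members each time. Members called numbered 4, 1 and 10 with no filter and 2 between the ages with DESeq2. The cause of these differences was not tested.

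With an offset for gene length the median of the nuclear subunit genes was −0.013 at 24 weeks against nTg and 0.110 between the ages, and that of the mtDNA genes −0.153 and −0.182. Leaving out 1 library at a time, the nuclear medians ran from 0.049 to 0.26, −0.154 to −0.01 and 0.128 to 0.325 in the 3 comparisons, and the mtDNA medians from −0.089 to 0.08, −0.118 to 0.127 and −0.141 to 0.087. The mtDNA share of counts ran from 7.22% to 8.03% in 24-week Tg, 7.28% to 8.27% in 15-week Tg and 7.67% to 8.11% in nTg. In TPM it was 13.6%, 14.1% and 14.5%, and with all genes of the mitochondrial chromosome 9.95%, 10.2% and 10.2% of counts. The nuclear minus mtDNA median was −4.451, −4.605 and −4.790 in log2 TPM. Of 3057 values of 51 named genes under the alternatives, 222 changed sign, in 42 of the genes, and 16 became called. No member was called in the fit reported, so no change of sign could fall on a called gene. The values that changed sign had a median size of 0.06 in the fit reported, with 10 over 0.3 and the largest at 0.85.

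With the replicate number as a block (replicate block), 15 genes were called at 24 weeks against nTg and 0 members in each comparison, with nuclear medians of 0.172, −0.084 and 0.259. Same-numbered libraries correlated in their deviations from the group means by −0.237 to 0.290, so the numbers were not taken to pair them.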
